A study of Zea mays with 168 samples.

Results

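Gene expression in the primary root of maize (Zea mays) was ordered by the number of genome copies that a plant carried from the inbred line 005. The series holds 4 inbred lines (002, 005, 250 and 301) and the 12 reciprocal hybrids between them, with samples read in pairs on 84 slides of a cDNA array in 2 colours. The members are all samples of the 16 genotypes, sorted by dose alone: the genotype labels, and no spot's value, set the group of a sample. The inbred 005x005 carried 2 copies of line 005 (n = 14 samples). The 6 hybrids 002x005, 005x002, 250x005, 005x250, 301x005 and 005x301 carried 1 copy (n = 38, with 5 to 7 samples each). The inbreds 002x002, 250x250 and 301x301 and the hybrids 002x250, 250x002, 002x301, 301x002, 250x301 and 301x250 carried 0 copies (n = 100, with 8 to 19 samples each). These samples lay on 76 slides, after 8 slides (0, 1, 18, 19, 48, 288, 289 and 472) had been left out by the rule that defines the members. All were primary roots 3.5 days after germination, about 20 roots were pooled per replicate and no treatment differed between groups.

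The primary root is the first root to leave the maize kernel, and maize hybrids are known for growing more vigorously than their inbred parents, which is called heterosis. A hybrid receives a genome copy from each parent. If each copy contributes to a transcript on its own, the hybrid is expected midway between its parents, which is called additive expression, and a hybrid away from that midpoint is called non-additive. That midpoint refers to linear levels. Here the midpoint is taken on the log2 scale, where an additive transcript that differs between the parents lies somewhat above it. Ordering samples by the dose of a line separates the 2 quantities: the trend per copy is the change in the log2 level for each copy added, and the departure is the distance of the 1-copy plants from the straight line between 0 and 2 copies.

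The slide pairs limited what could be measured. No slide carried a 2-copy and a 0-copy sample together. On 14 slides a 2-copy sample was paired with a 1-copy hybrid, and on 14 others a 1-copy hybrid was paired with a 0-copy genotype. These 28 slides of unequal copies carried the information on dose, and the steps from 0 to 1 and from 1 to 2 copies came from different slides. The other 48 slides (5 with 1 against 1 copy and 43 with 0 against 0) contributed to the estimates of dye effect and spread. Per slide, the SD of the log2 ratio over spots was 0.175 to 0.951 (median 0.451), and print blocks, the 32 fields of 380 spots laid down on the slide, accounted for 4.92% to 57.7% of its variance. A median of 52% of the tested spots per channel lay above all but the brightest few of the unnamed spots at the block edges. Samples are separate biological replicates per the series text.

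Identifiers are those printed beside the spots and are names of cDNA clones. Of 11431 identifiers tested, 8 had a gene in the RefSeq table of maize genes (assembly Zm-B73-REFERENCE-NAM-5.0), and none of these was a member of the lists of sugar use, translation, chromatin, cytoskeleton, cell wall, transport, protein turnover, stress and cell type marker genes drawn up for the tissue. The labelled tissue could therefore not be checked against its markers, and most spots below carry an identifier with no gene name, function or position. Levels of the 397 identifiers with 2 tested spots had a rank correlation of 0.22 between the spots, so an identifier may not describe every spot that bears it.

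No spot passed the test for a change with the dose of line 005 at an adjusted p under 0.05. Of 11838 spots tested for a trend per copy, 0 were called higher and 0 lower (0% in each direction, limma with the slide as block and the dye as covariate, smallest Benjamini-Hochberg adjusted p = 0.36). At an unadjusted p under 0.05 there were 739 spots, which is 6.24% of those tested, 305 of them higher (2.58%) and 434 lower (3.67%) with more copies of line 005. The median SE of a trend was 0.0851 on the log2 scale, which gives a 95% interval of 0.169 to each side. Estimates ran from -0.945 to 0.696, with an SD of 0.116 over spots. Past 0.5 in size were 87 negative and 2 positive estimates, and both positive ones were spots of the identifier BG841578.

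**Figure D1:**
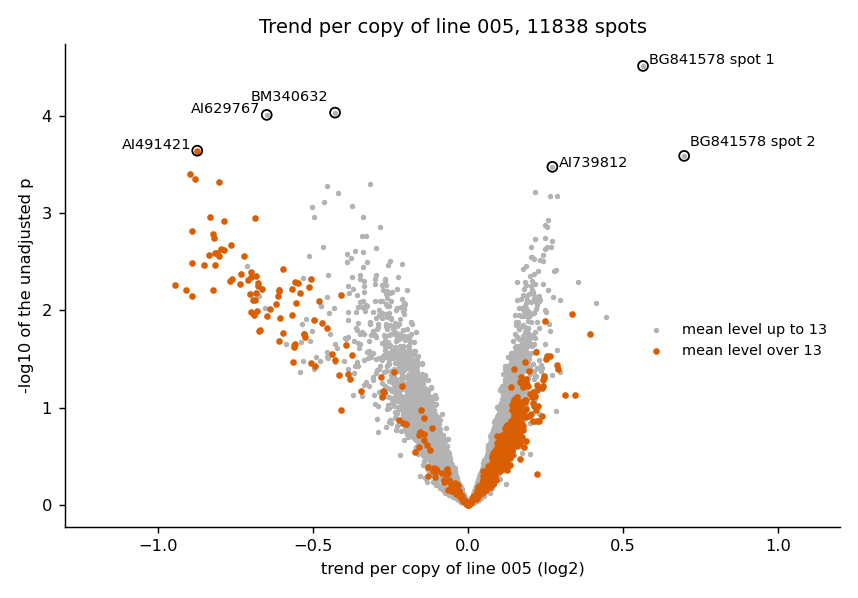
Each point is 1 of 11838 spots, with the trend per copy of line 005 (log2) on the horizontal axis and -log10 of its unadjusted p (limma) on the vertical axis, and spots with a mean level over 13 in orange. The 2 spots of BG841578 stand alone on the positive side, while spots of high level make up most of the negative estimates past 0.5 in size. The 6 circled spots are those with the smallest p in each direction, and none passed the adjusted threshold.

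BG841578 was printed on the array at 2 places in different print blocks (blocks 9 and 28), and both spots were brighter with more copies of line 005. Levels are given as the log2 value minus the median of all tested spots in the same channel. They are not adjusted for the slide. The 2 channels of a slide correlated at 0.806 (limma consensus over spots), so levels by copies and by genotype also carry differences between slides. At the first spot, the 2-copy samples ran from 0.07 to 3.16 with a median of 1.52. The 1-copy samples ran from -0.27 to 2.76 with a median of 1.17, and the 0-copy samples from -10.02 to 2.39 with a median of 0.28. Without adjustment for the slide, the medians thus followed the number of copies, while the ranges of all 3 groups overlapped. The lowest value belongs to samples of a slide on which the spot was deposited at 0 in both channels.

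The second spot was brighter in all groups and ordered the same way. Its level was 0 to 5.54 in the 2-copy samples (median 3.44), 0.28 to 4.71 in the 1-copy samples (median 2.73) and -0.7 to 4.68 in the 0-copy samples (median 1.99). Here too the ranges overlapped. The spots lay above the unnamed edge spots in 62.5% and 88.2% of the samples.

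**Figure D2:**
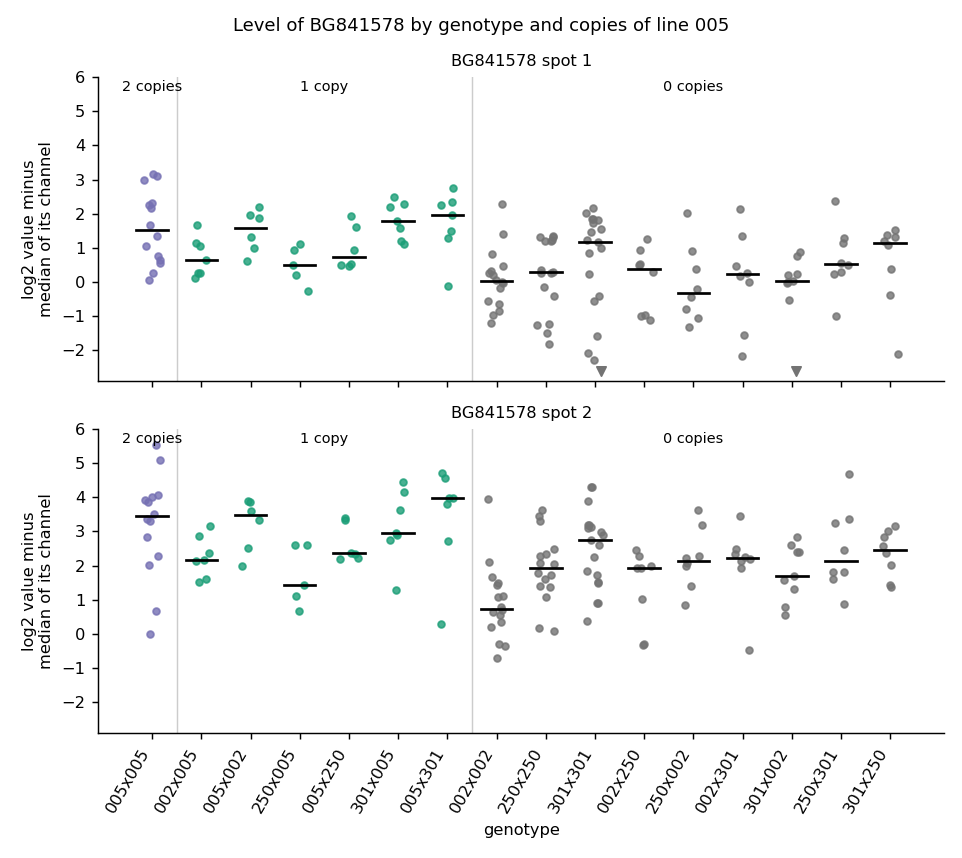
Each point is a sample, placed by genotype and copies of line 005, with the log2 value minus its channel's median on the vertical axis, black bars at the genotype medians, and triangles for samples at -10.02, off the scale. At both spots the 005x005 samples and the hybrids of 005 with 301 lie high, and the hybrids 002x005 and 250x005 overlap with the 0-copy genotypes.

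By genotype, the first spot had its highest mean level in 301x005 (1.81 ± 0.54, SD, n = 7), followed by 005x301 (1.71 ± 0.95, n = 7), 005x005 (1.6 ± 1.07, n = 14) and 005x002 (1.49 ± 0.62, n = 6). Neighbours in this order lay closer together than their SDs. The 1-copy hybrid with the lowest mean was 250x005 (0.5 ± 0.56, SD, n = 5), below the 0-copy hybrids 250x301 (0.68 ± 0.98, n = 8) and 301x250 (0.56 ± 1.25, n = 8). At the second spot, 005x301 (3.43 ± 1.53, SD, n = 7), 005x002 (3.2 ± 0.79, n = 6) and 005x005 (3.18 ± 1.53, n = 14) had the highest means. The inbred 002x002 had the lowest (0.91 ± 1.11, SD, n = 16). The 0-copy inbred 301x301 stood at 2.49 ± 1.14 (SD, n = 19) at this spot, above the 1-copy hybrids 002x005 and 250x005, so dose did not order the genotypes without exception.

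On the slides themselves, which compare both samples under the same conditions, the first spot was brighter in the sample with more copies on 24 of 28 slides. On the 14 slides of the step from 0 to 1 copy, its log2 ratio ran from -0.18 to 1.87 (median 0.42), and on the 14 slides of the step from 1 to 2 copies from -1.17 to 1.99 (median 0.5). Of all tested spots, 6 (0.0507%) were higher on 24 or more slides. That cutoff is the first spot's own count. The spot was chosen by its trend on these slides, so the share is a description and not a test. Its trend was 0.56 ± 0.13 per copy (SE, p = 3.1e-05, adjusted p = 0.36 with limma), a 1.48-fold difference per copy. The departure of the 1-copy samples from the line was -0.02 ± 0.13 (SE, adjusted p = 1 with limma).

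The second spot was brighter with more copies on 20 of 28 slides. Its ratios ran from -0.5 to 3.3 (median 0.61) in the first step and from -2.01 to 2.2 (median 0.63) in the second. The trend was 0.7 ± 0.18 per copy (SE, p = 0.00026, adjusted p = 0.53 with limma), 1.62-fold, with a departure of 0.14 ± 0.18. Both spots of BG841578 thus had the same direction, similar size and steps of similar height, and neither passed the threshold in the fit across all spots. Over the 76 slides the log ratios of the spots correlated (Pearson r = 0.62, Spearman rho = 0.6), and without the 2 farthest slides r was 0.59. No p is given, since these spots were chosen by their trends on some of the same slides. Among the 397 identifiers with 2 spots this r ranked 3, where the median was 0.021. Over the 48 slides of equal copies r was 0.54, so the spots also moved together where the dose did not differ.

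**Figure D3:**
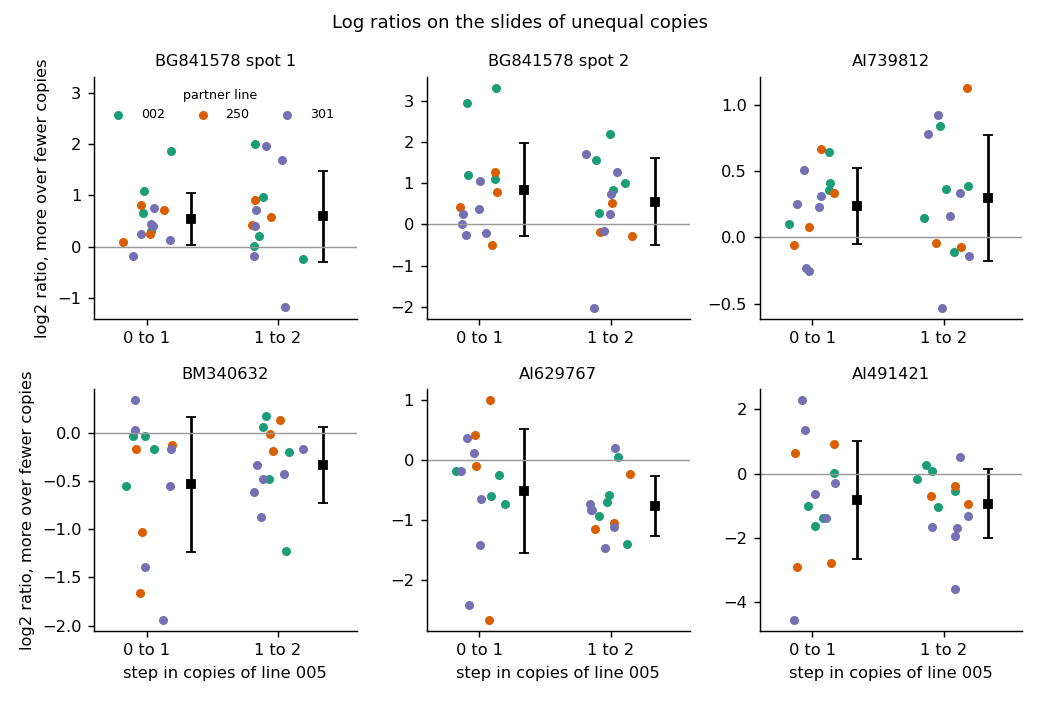
Each point is a slide of unequal copies, with the log2 ratio of the sample with more over that with fewer copies of line 005, after removal of the fitted dye effect, on the vertical axis and the step on the horizontal axis. Colours give the partner line of the hybrid, and black squares with bars give the mean and SD over 14 slides. All 6 spots have means of 1 sign in both steps, and slides on both sides of 0.

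The dose call for BG841578 depended on how slides were treated. With the slide as a random rather than a fixed block, which also uses levels between slides, both spots were called (0.68 ± 0.14 per copy, SE, adjusted p = 0.012 with limma for each). Without slide 3, on which the first spot had its lowest ratio, that spot was called (0.64 per copy, adjusted p = 0.025 with limma). With slides weighted by their spread both spots were called, at 0.57 ± 0.09 and 0.86 ± 0.15 (SE, adjusted p = 0.00033 and 0.00096 with limma). Without the 4 slides of highest weight (26, 33, 41 and 471) these became 0.43 ± 0.12 and 0.56 ± 0.19 (adjusted p = 0.3 and 0.37 with limma).

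The slides left out of the 76 also carried BG841578. On those that pair 005x005 with a hybrid of 005, the first spot was brighter in 005x005 by 1.36 (slide 1), 0.97 (slide 18), 1.02 (slide 19) and 1.97 (slide 288). The second spot gave 1.21, -1.37, 2.5 and 1.6 on the same slides. Slides 472 and 48, which pair a hybrid of 005 with a 0-copy inbred, gave 0.67 and 0.05 at the first spot and 1.1 and 0.43 at the second. Their values are nearly those of slides 26 and 28 (rank correlations of 0.9914 to 0.9989 of their channels, where separate samples of the same genotype and dye had a median of 0.6), so they add nothing to those slides. With all 84 slides the first spot was called (0.64 ± 0.12 per copy, SE, adjusted p = 0.0039 with limma) and the second was not (0.75 ± 0.17, adjusted p = 0.097). That fit still counts slides 472 and 48 as further replicates beside slides 26 and 28.

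AI739812 had the next smallest p among spots higher with more copies. Its level was -0.93 to 1.23 (median -0.28) with 2 copies, -1.32 to 0.52 (median -0.24) with 1 copy and -2.43 to 1.39 (median -0.5) with 0 copies, and the groups overlapped over nearly their whole range. The ratio was positive on 20 of 28 slides. The trend was 0.27 ± 0.07 per copy (SE, adjusted p = 0.53 with limma). On the left-out slides 1, 18, 19 and 288 the ratio was -0.11, 0.74, 0.4 and 1.15. The spot lay above the edge spots in 37.5% of the samples.

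Of the spots with lower values at more copies, BM340632 had the smallest p. Its level was -1.18 to 0.27 (median -0.21) with 2 copies, -1.25 to 1.41 (median -0.15) with 1 copy and -1.28 to 1.67 (median -0.01) with 0 copies. The groups overlapped, and the 2 highest values came from a 0-copy sample of 250x250 and a 1-copy sample of 002x005. The ratio was negative on 23 of 28 slides, and 14 of all tested spots (0.118%) were lower on 23 or more. Here too the cutoff is the count of a spot chosen by its trend, so the share is no test. The trend was -0.43 ± 0.10 per copy (SE, adjusted p = 0.39 with limma). The left-out slides 1, 18, 19 and 288 gave -0.43, -0.39, 0.67 and 1.63, so 2 of these 4 went against it.

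AI629767 ran from -0.36 to 2.41 (median 1.02) with 2 copies, from -0.26 to 3.53 (median 1.03) with 1 copy and from -1.02 to 4.29 (median 1.23) with 0 copies. The ratio was negative on 22 of 28 slides, including 12 of the 14 between 1 and 2 copies. The trend was -0.65 ± 0.16 per copy (SE, adjusted p = 0.39 with limma). The left-out slides 1, 18, 19 and 288 gave -1.16, -1.04, 1.32 and 1.59, again with 2 of 4 against it. On the 3 informative slides of the highest slide numbers (916 to 999), the mean ratio was -0.14 ± 1.08 (SD, n = 3), and the fit on that range alone gave 0.31. On all 3 (942, 944 and 945) the dye in the title conflicts with the label field.

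AI491421 was a bright spot on average, with a mean log2 value of 13.76. Its level was 0.96 to 6.11 (median 4.09) with 2 copies, 1.18 to 7.07 (median 4.41) with 1 copy and -10.11 to 8.11 (median 4.42) with 0 copies, so the medians of the groups differed little. Among the 0-copy genotypes the median ran from -0.55 in 250x002 to 5.96 in 301x250, so the spot was not bright in every sample. The ratio was negative on 20 of 28 slides, from -4.54 to 2.27. The trend within slides was -0.87 ± 0.23 per copy (SE, adjusted p = 0.53 with limma), and with the slide as a random block it was -0.36 (adjusted p = 0.66 with limma). The random block also uses levels between slides. Among these are 0-copy levels of -10.11 (slide 292) and -10.02 (slide 999), where the spot was deposited at 0 in both channels. Their part in the difference was not tested. The left-out slides 1, 18, 19 and 288 gave -1.02, -3.2, 6.01 and -0.42. Its deposited value exceeded 16 on the log2 scale in 38 samples, while none of its scans was saturated at every gain.

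AI491421 stood in a group of very bright spots with lower values at more copies. Of the 87 spots with a trend under -0.5, 70 had a mean log2 value over 13, a level reached by 560 spots or 4.73% of those tested. The other bright spots lay on the opposite side: the median trend of all 560 was 0.076, and 29.3% of them were negative, against a median of 0.015 and 43.5% over all spots. After loess normalization within slides the median of the bright spots was -0.007 and 53.8% were negative. Loess subtracts the typical ratio at each brightness, which by construction draws this median toward 0. The number of bright spots under -0.5 was then 81. The 70 spots were chosen by their trend, so the values that follow are a description without a test.

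These 70 spots lay in 27 of the 32 print blocks and moved nearly as a unit, with a median correlation of 0.9 between a spot and the mean of all 70 over the 76 slides. Their mean log2 ratio was negative on 20 of the 28 slides of unequal copies and ran from -3.4 to 1.45, with a median of -0.59. On the 48 slides of equal copies the same mean ran from -2.51 to 2.3. Its SD was 1.22 on the slides of unequal copies and 1.16 on those of equal copies, which paired different genotypes of the same dose. Each SD is taken about its own mean and leaves out a shift common to all slides. The SDs therefore give the spread between slides and do not say whether dose added a difference. The sources used here do not say which transcripts these spots measure.

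The 25 spots with the smallest trend p held 8 with higher and 17 with lower values at more copies, and 7 of the lower ones had a level over 13. Among them were AI734804 (-0.9 per copy), AI491403 (-0.88), AW787311 (-0.8), AI586604 (-0.83), AI622289 (-0.69) and AW424633 (-0.79), all bright, with pairwise correlations over slides of 0.72 to 0.92 together with AI491421. Dimmer spots with lower values were BM341173 (-0.5), BG841990 spot 1 (-0.5), AW091504 (-0.46), BG841050 spot 1 (-0.45), AI621754 (-0.42), AY265854 (-0.37), AW216260 (-0.34) and AI622244 (-0.32). On the other side were BG841741 (0.29), AI942057 (0.26), BG873771 (0.26), AW352512 (0.25) and AI964613 (0.21). BG841741 and BG873771 are next to each other on the slide and correlated at 0.63 over slides, and the part of slide position in their values was not tested. The trend is the mean of both steps, so a choice by its p favours steps of equal sign, and all 25 had them. In 21 the departure was smaller than its SE, as in 76.8% of all tested spots. The trends from the scanner tables, before the authors chose scans and normalized, had the same sign in 25 of 25. Those tables hold scans of the same slides, and over all spots the trends from both sources correlated at 0.94. The like signs are therefore no independent support.

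The next question was whether the 1-copy hybrids lay midway between 0 and 2 copies. No spot departed from the line at an adjusted p under 0.05, with 0 of 11838 higher and 0 lower (0% in each direction, limma, smallest adjusted p = 1). Unadjusted p under 0.05 was reached by 243 spots, 2.05% of those tested, with 1.39% higher and 0.659% (78 spots) lower in the 1-copy samples. Departures had an SD of 0.0763 over spots and a median SE of 0.0845, so the 95% interval of a typical spot reached 0.168 to each side.

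BG842075 had the smallest p for a departure. Its level was -0.25 to 4.39 (median 2.35) with 2 copies, -0.38 to 4.78 (median 2.64) with 1 copy and -0.28 to 4.83 (median 2.32) with 0 copies. The hybrids with line 005 thus had the highest median, inside overlapping ranges. On 11 of 14 slides the 1-copy hybrid was above the 0-copy sample (ratio from -0.52 to 1.33, median 0.73). On 12 of 14 slides it was also above 005x005, where the ratio of 2 over 1 copy ran from -1.44 to 0.11 (median -0.36). The departure was 0.50 ± 0.13 (SE, p = 0.00023, adjusted p = 1 with limma), and with slide weights it was called at 0.5 ± 0.1 (adjusted p = 0.033 with limma).

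BG840753 and AI665883 followed, with departures of 0.34 ± 0.10 (SE) and 0.26 ± 0.08. Median levels of BG840753 were 1.62, 1.55 and 1.36 with 2, 1 and 0 copies, and those of AI665883 were 0.18, 0.45 and 0.37. The departure of BG840753 therefore appears within slides and not in the order of the medians. Below the line were AI967219 (-0.30 ± 0.09), BG841231 spot 2 (-0.29 ± 0.10) and AI770749 (-0.25 ± 0.09, all SE), with median levels at 1 copy of 0.37, 0.14 and -0.59 against 0.58, 0.37 and -0.2 at 0 copies. All had an adjusted p of 1 with limma, and each departure was about 3 to 4 times its SE.

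The 2 steps were then compared, since they were measured on different slides. For the step from 0 to 1 copy, 471 of 11838 spots (3.98%) had an unadjusted p under 0.05 and 0 were called (0%, limma, smallest adjusted p = 0.92). For the step from 1 to 2 copies these were 517 spots (4.37%) and 0 calls (0%, limma, smallest adjusted p = 1). Over all 11838 spots the steps, each with its own dye effect, correlated at r = 0.36 (rho = 0.19), and 56.8% had the same sign. A split of the 28 slides by dye gave correlations below 0. Slides with more copies in Cy5 (17) and in Cy3 (11) gave estimates that correlated at r = -0.097 (rho = -0.22). Of these, 41.9% had the same sign, after removal of the dye effect of the other 48 slides. That dye estimate was subtracted on the Cy5 side and added on the Cy3 side. Its error thus enters with opposite signs and by construction pulls this correlation below 0. Each step had its own dye effect, so the split by dye cannot be set against the split by step. The size of this pull was not tested. Spots share slides, print blocks and the line 005x005 or its hybrids, so these are descriptions across spots and not tests.

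The likeness between the steps came with brightness. Among the 5919 spots above the median level r was 0.48, and among those below it 0.15. Of the spots with a step from 0 to 1 copy past 0.5 in size (0.853% of those tested), 93.1% had the same sign in the other step. Of those with a step from 1 to 2 copies past 0.5 (0.946%), 94.6% did. These percentages are not over independent spots. The trend is the mean of both steps, so the 70 bright spots with a trend under -0.5 each had at least 1 step past that size. Those 70 moved nearly as a unit over slides, with a median correlation of 0.9 with their mean. Both percentages may therefore count the same group of spots many times, and the likeness without that group was not tested.

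**Figure D4:**
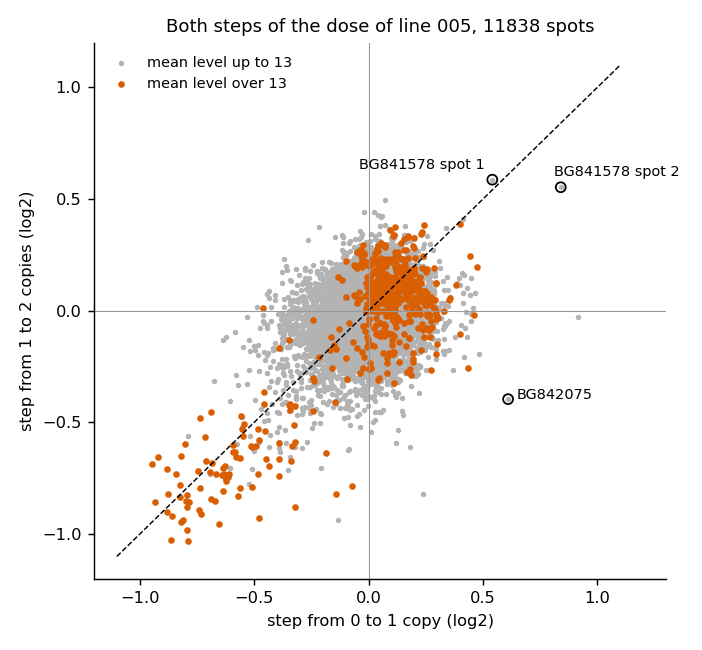
Each point is 1 of 11838 spots, with the step from 0 to 1 copy (log2) on the horizontal and the step from 1 to 2 copies (log2) on the vertical axis. The dashed line marks equal steps, and spots with a mean level over 13 are orange. BG841578 lies near the line at the upper right, bright spots spread along it at the lower left, and BG842075 lies off it with steps of 0.61 and -0.40.

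The dose of line 005 was replaced from 3 different lines, so the trend was also fitted separately for hybrids with 002 (9 slides of unequal copies), with 250 (7 slides) and with 301 (12 slides). No spot differed between partner lines at an adjusted p under 0.05 (0 of 11838, 0%, limma F-test, smallest adjusted p = 1), and 328 (2.77%) had an unadjusted p under 0.05. Partners were spread unevenly over the slides. All 10 informative slides numbered 273 to 309 carried hybrids with 301, and all 3 numbered 916 to 999 carried hybrids with 250, so partner line and slide range cannot be fully told apart. Over spots, the trends with 250 and 301 correlated at 0.41, those with 002 and 301 at 0.23 and those with 002 and 250 at 0.14. The 3 trends share the 005x005 line but no slide.

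At the first BG841578 spot the trend was 0.78 ± 0.23 with 002, 0.55 ± 0.26 with 250 and 0.43 ± 0.20 with 301 (all SE, partner p = 0.51 unadjusted), so each partner gave the same direction. At the second spot it was 1.65 ± 0.30 with 002, where all 9 slides were positive (0.28 to 3.3, median 1.2). With 250 it was 0.25 ± 0.34 and with 301 it was 0.25 ± 0.26, on slides of both signs. The unadjusted p for a partner difference at the second spot was 0.0011 and the adjusted p was 1 with limma. The second spot thus had most of its trend from the slides of the hybrids with 002, and without them it was 0.26 ± 0.20 per copy (SE).

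**Figure D5:**
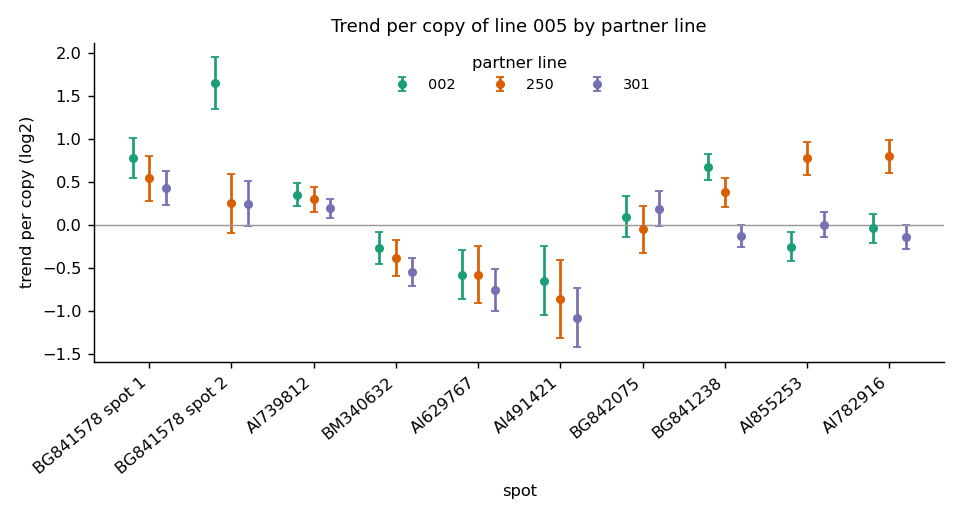
Points give the trend per copy of line 005 (log2) and bars its SE, by partner line, for the 6 spots with the smallest trend p in each direction, for BG842075 and for the 3 spots with the smallest partner p. The first 6 spots have the same sign with every partner, and AI855253 and AI782916 are more than 2 SE from 0 with partner 250 only.

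The smallest partner p belonged to BG841238, at 0.68 ± 0.15 with 002, 0.38 ± 0.17 with 250 and -0.13 ± 0.13 with 301 (all SE, unadjusted p = 0.00031, adjusted p = 1 with limma). BG841238 is printed beside BG841741, and their log ratios correlated at 0.7 over slides. AI855253 (0.78 ± 0.19 with 250, -0.25 ± 0.17 with 002) and AI782916 (0.80 ± 0.19 with 250, -0.04 ± 0.16 with 002) came next. They lay above the edge spots in only 7 and 8 of all samples, so these values were measured close to background.

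Within the 1-copy hybrids the line named first may matter, since 005x002 and 002x005 hold the same nuclear genomes in reverse order of naming. No spot differed by order at an adjusted p under 0.05 (0 of 11838 in either direction, 0%, limma, smallest adjusted p = 0.62), and 810 (6.84%) had an unadjusted p under 0.05. AW400040 was -0.58 ± 0.14 and AW400041 -0.50 ± 0.13 (SE, p = 0.00013 for both) lower where 005 was named first. These spots lie next to each other on the slide and correlated at 0.85 over slides, and the part of their position was not tested. On the 5 slides that carried 2 hybrids of 005 together, AW400040 gave -1.03, -0.69, -0.85, -0.05 and -0.04, all negative but near 0 on the last 2. On the same slides AW400041 gave -1.03, -0.03, -0.97, -0.06 and 0.06, so its lower values came from 2 of the 5. AI977904 was -0.54 ± 0.15 (SE, p = 0.00041, adjusted p = 0.62 with limma), and these slides gave -0.58, -0.02, -1.68, 0.05 and -0.18. With slide weights the order differences of AW400040, AW400041 and AI977904 shrank to -0.32, -0.22 and -0.21 (adjusted p = 0.35, 0.57 and 0.62 with limma). With all 84 slides, the near copies 472 and 48 counted as further slides, they were called, at -0.8, -0.74 and -0.5 (adjusted p = 0.0037, 0.0037 and 0.031 with limma).

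The 8 identifiers with a gene name did not pass the test for dose in either direction (0 of 10 spots). AI665898 (LOC100191184, listed as a reticulon, a family of proteins that shape the endoplasmic reticulum) is printed at 2 places. Its first spot had median levels of 0.1, 0.15 and 0.26 with 2, 1 and 0 copies and a trend of 0.14 ± 0.07 (SE). Its second spot had medians of -0.38, -0.18 and 0.01 and a trend of -0.16 ± 0.10, so the spots had opposite signs (adjusted p = 0.82 and 0.86 with limma).

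AW400087 (LOC100500995, annotated as a long non-coding RNA) had similar median levels of 2.32, 2.32 and 2.19 at 2, 1 and 0 copies. Its 0-copy samples ran from 0.38 to 5.11, and its trend was 0.10 ± 0.09 (SE). AW257883 (LOC100279628) had median levels of 4.04, 2.78 and 1.41 at 2, 1 and 0 copies, the widest spread among the named genes. Within slides its trend was only 0.07 ± 0.11 (SE, adjusted p = 0.94 with limma), and with the slide as a random block, which also uses levels between slides, it was 0.62 ± 0.2 (SE, adjusted p = 0.2 with limma). AI987507 (LOC542198) at 0.09 ± 0.09, AI691686 spot 2 (LOC100272873) at 0.08 ± 0.08, AI901738 (LOC100383044) at 0.07 ± 0.08 and AI714808 (LOC100283464, annotated as a transcribed pseudogene) at -0.04 ± 0.08 differed from 0 by about their SE or less.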

How the data were processed

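The main input was the deposited value table on the log2 scale. Per the deposited notes, its values come from a scan that the authors selected for every probe and then normalized. The linear intensity of each scan, in the deposited scanner tables, was combined over 977 scans (14 left out), turned to the row order of the value table (median rank correlation 0.9974 with it, 0.0132 unturned), corrected with normexp (offset 50) and loess-normalized (span 0.3) as an alternative only. Another 18 scan columns match no labelled sample and were not used. The sources used here do not give the scanner or a genome build.

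From the value table, the log2 ratio of Cy5 over Cy3 per slide was fitted with limma 3.58.1 in R 4.3.3, with the difference in copies, the difference in 1-copy status and a dye effect (73 residual degrees of freedom, prior 9.76). Working within slides makes the slide a fixed block. The spots tested were 11838 of 12160, after 190 without identifier and 132 of identifiers printed 12 times were left out. Dyes follow the titles, which conflict with the label field on some slides. Benjamini-Hochberg adjustment ran over all tested spots, with a threshold of 0.05. The fit was tested on simulated data. Alternatives changed the block, normalization, weights, dye, spots and slides. The number of arrays limits the precision.

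The copy groups, gene lists and tests were chosen with earlier results of these data known. Spots named are those with the smallest p, up to 3 per direction for trend and departure and 3 each for partner and order, and up to 8 with a gene name. The 25 of smallest trend p and the bright spots were added after their values were seen. The gene lists and markers had no matching identifier.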

Additional observations from a re-analysis of the deposited data

Results flagged for a closer look

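Of 36 groups of 4 to 10 samples or slides examined, 2 held a value far from the others, and chance flags about 1 in 20 groups. At BG841578 spot 1, a 301x002 sample lay at -10.02 against a group median of 0.05 (n = 9), because the spot was deposited at 0 in both channels of its slide. Such pairs numbered 3834, of which 3776 lay on 5 slides of 0-copy genotypes and 26 on slides of unequal copies, and leaving them out gave a trend of 0.56 (adjusted p = 0.39 with limma). At BG841578 spot 2, a 002x301 sample lay at -0.47 against a group median of 2.23 (n = 8).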

How the results depend on the processing

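Counts of called spots in the 6 comparisons were 0 as reported and changed as follows. With the slide as a random block, 3 spots were called for the trend and 8 for the step from 0 to 1 copy. With slide weights there were 59 for the trend (21 higher, 38 lower), 3 for the departure, 69 for the step from 0 to 1, 4 for the step from 1 to 2 and 1 for the order of naming. All 59 had the same sign unweighted. With all 84 slides there were 1 for the trend, 2 for the step from 1 to 2, 1 for the partner and 254 for the order (6 higher, 248 lower). These counts include slides 472 and 48, which nearly repeat slides 26 and 28. Without the hybrids with 301 there were 3 for the step from 0 to 1. Slides 2 to 61 alone gave 1 for the trend, 4 for the step from 0 to 1 and 1 for the step from 1 to 2. Slides 916 to 999 alone gave 17 for the step from 1 to 2, which rests on slides 942 and 944. The step from 0 to 1 rests there on slide 945 alone, so no count is given for it or for the departure. Chosen after seeing the data, print block subtraction with weights gave 187, 11, 95, 2 and 4 for trend, departure, the 2 steps and order. Weights without slides 26, 33, 41 and 471 gave 0 for the trend, 1 and 3 for the steps and 2 for the order. Subtraction of the surrounding spots gave 1 for the step from 0 to 1. Leaving out each slide gave 0 to 1 calls for the trend, 1 without slide 3, and 0 for the other results. The cause was not tested.

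Signs turned for AW257883 with loess (-0.02), from the scanner tables (-0.02) and on slides 273 to 309 (-0.17) and 916 to 999 (-0.09). They turned for AI987507 without the hybrids with 301 (-0.04), on slides 916 to 999 (-0.13), and at 0 with both block subtraction and weights and with surrounding spots subtracted. AI691686 spot 2 turned on slides 2 to 61 (-0.02) and 273 to 309 (-0.04), and AI714808 on slides 273 to 309 (0.02), 916 to 999 (0.16) and, at 0, without slide 16 (range -0.06 to 0 when each slide was left out). On slides 916 to 999 AI629767 (0.31), AI491421 (0.33), AW400087 (-0.3) and the orders of AW400040 (0.12) and AW400041 (0.17) turned, as did the order of AI977904 on slides 471 to 561 (0.1). All informative slides numbered 916 to 999 have a title dye that conflicts with the label field, and its part in these signs was not tested. The other results kept their sign under every alternative run. The reported values pair the 2 samples of a slide. By replicate number, no paired analysis was possible because the numbers are not shared between genotypes. The partner comparison has no value with a random block or within slide ranges, and some ranges could not give every result. A median of 52% of the tested spots exceeded the edge spots, and values of the rest lie near background; the median SE of the trend was 0.0842 in the dimmest and 0.093 in the brightest of 4 equal groups of spots.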
